A study of Mus musculus with 18 samples.

Results

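Mouse CD4+ T cells lacking the prolyl hydroxylase domain (PHD) proteins were compared with control cells at a low dose of TGF-b, 0.2 ng/ml. The comparison rests on 4 of the 18 libraries of the series, 2 of each genotype, chosen by the genotype and the TGF-b dose in their labels. Control cells (WT) came from mice carrying Cd4Cre alone. Knockout cells (tKO, for triple knockout) came from Egln1fl/fl Egln2fl/fl Egln3fl/fl Cd4Cre mice, in which all PHD genes are flanked by loxP sites. Both groups therefore carried the same Cre transgene, on the C57BL/6 background. Cre driven by the Cd4 promoter is active from the stage of thymic development at which CD4 is first made, so the alleles are exposed to Cre before the naive cells are collected. Naive CD4+ cells were sorted from spleen, activated in culture with antibodies to CD3 and CD28 together with TGF-b, and collected on day 4. The same genotypes were also cultured with 0 and 2 ng/ml TGF-b, and those 8 libraries enter below to show where the difference at 0.2 ng/ml departs from the difference at the other doses. The remaining libraries of the series, cells given a PHD inhibitor or vehicle, were not used here. The labels do not say whether replicates came from separate animals or were pooled, so p-values measure the spread between libraries only. That spread, and each SE below, was estimated from all 12 libraries at 0, 0.2 and 2 ng/ml together.

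PHD proteins are oxygen-dependent enzymes that use iron and 2-oxoglutarate to hydroxylate prolines in hypoxia-inducible factor (HIF) alpha subunits. Hydroxylated HIF is bound by the von Hippel-Lindau protein and degraded, so loss of PHD activity lets HIF accumulate even where oxygen is plentiful. HIF is known to raise glycolytic enzymes, glucose and lactate transporters and mitophagy proteins, and 2 of the PHD genes, Egln1 and Egln3, are themselves HIF targets. TGF-b instructs activated CD4+ T cells to express Foxp3, the transcription factor that defines regulatory T cells, and holds back inflammatory cytokines.

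Expression was deposited as FPKM, fragments scaled by transcript length and by the number of mapped fragments, with no read counts, so sequencing depth is unknown and each sum below is a sum of FPKM. Sums over all entries were 630548 and 634631 in the WT libraries and 726892 and 856147 in the tKO libraries, and 10032 to 10240 symbols reached 1 FPKM. Over the genes tested, the 2 WT libraries correlated at 0.977 and the 2 tKO libraries at 0.960 (Pearson, log2 scale, across genes), against 0.903 to 0.932 between genotypes. The second tKO library stood apart from all others of the table on the third principal component (12.5% of the variance), with a score of 40.3 where the other 11 ranged from -21.7 to 20.6. The first tKO library carried Y-linked transcripts (Eif2s3y 45.5 FPKM) at each dose, and the other 3 libraries at 0.2 ng/ml did not. Defining T cell genes were present, with T cell receptor and identity genes summing to 4047 to 4446 FPKM in every library. The 8 myeloid markers summed to 1.85 and 2.22 FPKM in WT and to a listed 0 and 1.60 FPKM in tKO, with Lyz2, Csf1r and Elane listed at 0 in all 4 libraries, and the mast cell markers summed to at most 1.62 FPKM. B cell markers summed to 66.9 and 39.0 FPKM in WT and 27.8 and 18.5 FPKM in tKO, with Cd79b at 23.9 and 15.5 FPKM against 7.76 and 6.98 FPKM.

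Genotype moved a large share of the transcriptome at this dose. Of 10354 genes tested, 1604 (15.5%) differed at an adjusted p under 0.05 (limma on log2(FPKM + 1), Benjamini-Hochberg over all genes tested, two-sided), and all fold changes below are on that scale, which understates changes of weakly expressed genes. In tKO cells 943 genes were higher (9.11%) and 661 were lower (6.38%). These shares are the background for every count of list members below. The difference reached 1 log2 unit or more in 655 genes (6.33%) that were higher and 377 genes (3.64%) that were lower. All 1604 genes had both libraries of 1 genotype above both of the other. That alone was common, since both tKO libraries lay above both WT libraries in 28.1% of genes and below them in 27.0%. With such separation, leaving out 1 of the 4 libraries cannot reverse the direction of a called gene. The count depended on each of the 4 libraries. It was 803 without the first WT library, 749 without the second, 2667 without the first tKO library and 889 without the second, and no gene of the 1604 was called in the opposite direction in any of these fits. Genes listed at 0 in both WT libraries and at 10 FPKM or more in both tKO libraries were Ubd (10.5 and 59.2 FPKM), Ifng (11.7 and 28.1 FPKM) and Gal (11.3 and 18.5 FPKM).

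**Figure D1:**
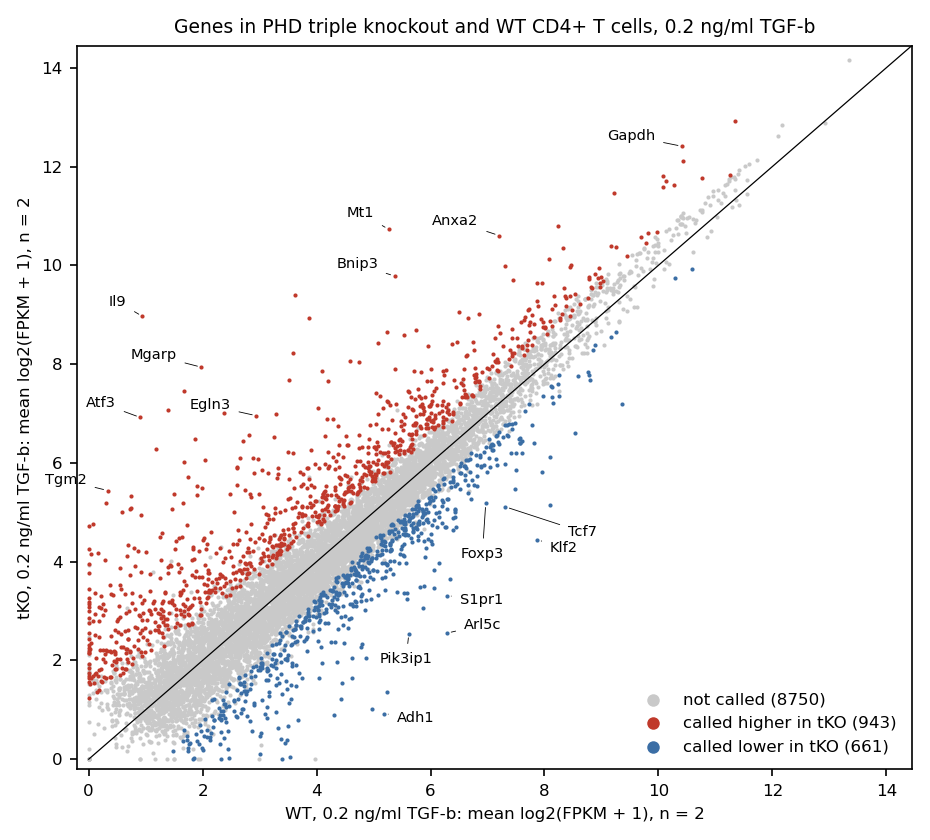
Each point is 1 of the 10354 genes tested, placed by its mean log2(FPKM + 1) over the 2 WT libraries (x axis) and the 2 tKO libraries (y axis) at 0.2 ng/ml TGF-b, with red for the 943 genes called higher in tKO, blue for the 661 called lower and grey for the rest. Il9, Mgarp, Mt1 and Bnip3 lie far above the line of equal expression, and Adh1, Arl5c, Pik3ip1 and Klf2 far below it.

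The targeted genes were read first. Egln1, which encodes PHD2, the main regulator of HIF in most cells, stood at 28.5 and 30.8 FPKM in WT and 122 and 95.6 FPKM in tKO, a log2 difference of 1.83 ± 0.18 (SE, adjusted p = 2.07e-05). Egln3, encoding PHD3, stood at 5.68 and 7.84 FPKM in WT and 136 and 111 FPKM in tKO, a difference of 4.01 ± 0.23 (adjusted p = 3.00e-07). Egln2, encoding PHD1, was at 48.8 and 44.0 FPKM in WT and 34.6 and 19.9 FPKM in tKO, and its difference of -0.79 ± 0.26 missed the threshold (adjusted p = 0.0540). The table holds 1 value per gene and none per exon, so these values do not check the deletion of the floxed exons. In the mm9 coordinates of the table Egln1 lies on chromosome 8 (127432472 to 127473232), Egln2 on chromosome 7 (27943649 to 27951821) and Egln3 on chromosome 12 (55279002 to 55304867).

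Of the 16 genes of the oxygen-sensing core, 14 were tested, 6 were higher in tKO and none was lower (median log2 difference 0.36, against 0.01 over all genes tested). The 6 include the targeted genes Egln1 and Egln3 described above. Vhl, the substrate receptor that recognises hydroxylated HIF, was at 14.8 and 18.0 FPKM in WT and 42.9 and 37.5 FPKM in tKO (1.25 ± 0.20, adjusted p = 0.000777). Hif3a, a HIF alpha paralog that can dampen HIF activity, was at 0.466 and 0.00965 FPKM in WT and 2.59 and 4.30 FPKM in tKO (1.84 ± 0.35, adjusted p = 0.00314). The message for HIF-1 alpha itself, which is controlled mainly through protein stability, did not separate the genotypes. Hif1a was at 58.7 and 43.5 FPKM in WT and 46.8 and 24.9 FPKM in tKO (-0.55 ± 0.38, adjusted p = 0.355). Tceb1 and Tceb2, the elongins that join Vhl to its ubiquitin ligase, were called higher (0.94 and 0.92), but neither call held without the second tKO library (adjusted p = 0.210 and 0.152) or without either WT library (adjusted p from 0.0867 to 0.134), and 4 core genes were then called. Epas1 and Arnt2 were under the expression filter.

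Glycolysis moved as a block. All 22 listed transporters and enzymes were tested, 17 were higher and none was lower, with a median log2 difference of 1.65. That count stayed between 15 and 18 when any 1 of the 4 libraries was left out. Hk2, the hexokinase that traps glucose in the cell, went from 3.84 and 1.88 FPKM to 35.6 and 45.1 FPKM (3.46 ± 0.26, adjusted p = 2.02e-06). Tpi1, triose phosphate isomerase, had the smallest p of the list, with 287 and 313 FPKM in WT and 1592 and 1965 FPKM in tKO (2.56 ± 0.16, adjusted p = 6.87e-07). Pgk1, the first ATP-yielding enzyme of the pathway, went from 588 and 599 FPKM to 2721 and 2895 FPKM (2.24 ± 0.15). In each of these genes the genotypes were far apart beside the gap between replicates. Gapdh, often used as a reference transcript, was not constant here. It stood at 1275 and 1460 FPKM in WT and 5043 and 5878 FPKM in tKO (2.00 ± 0.17, adjusted p = 6.63e-06). Pgam1 was at 224 and 243 FPKM against 714 and 888 FPKM (1.77 ± 0.16), and Slc16a3, which exports lactate, at 31.3 and 21.1 FPKM against 341 and 201 FPKM (3.30 ± 0.26). Of the genes not called, Hk1 differed by 1.09, Slc16a1 by 0.52, Pdk1 by 0.38, Pfkm by -0.25 and Pfkfb4 by -0.75. Pdk1, the kinase that closes pyruvate entry into mitochondria and a classic HIF target, was thus among the 5 that did not pass.

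Glycogen genes followed, with 6 of 8 tested higher and none lower (median 1.80). Pygl, the liver-type glycogen phosphorylase, was at 0.265 FPKM and listed at 0 in WT and at 14.5 and 19.8 FPKM in tKO (4.00 ± 0.32, adjusted p = 3.46e-06). Gys1, glycogen synthase, which works in the opposite direction, went from 5.84 and 6.47 FPKM to 52.9 and 30.4 FPKM (2.52 ± 0.35, adjusted p = 0.000275). Genes of both synthesis and breakdown were therefore higher. Ppp1r3b, a subunit that targets protein phosphatase 1 to glycogen, differed by 2.58 ± 0.33 and Pgm2 by 2.23 ± 0.20. The calls of Gbe1 and Ugp2 did not hold without the first tKO library (adjusted p = 0.0610 and 0.0979) or the second WT library (adjusted p = 0.169 and 0.149), and Ugp2 did not without the first WT library (adjusted p = 0.139). The list gave 4 to 6 higher genes over these fits. Pgm1 (-0.72) and Gyg (-0.32) were not called.

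**Figure D2:**
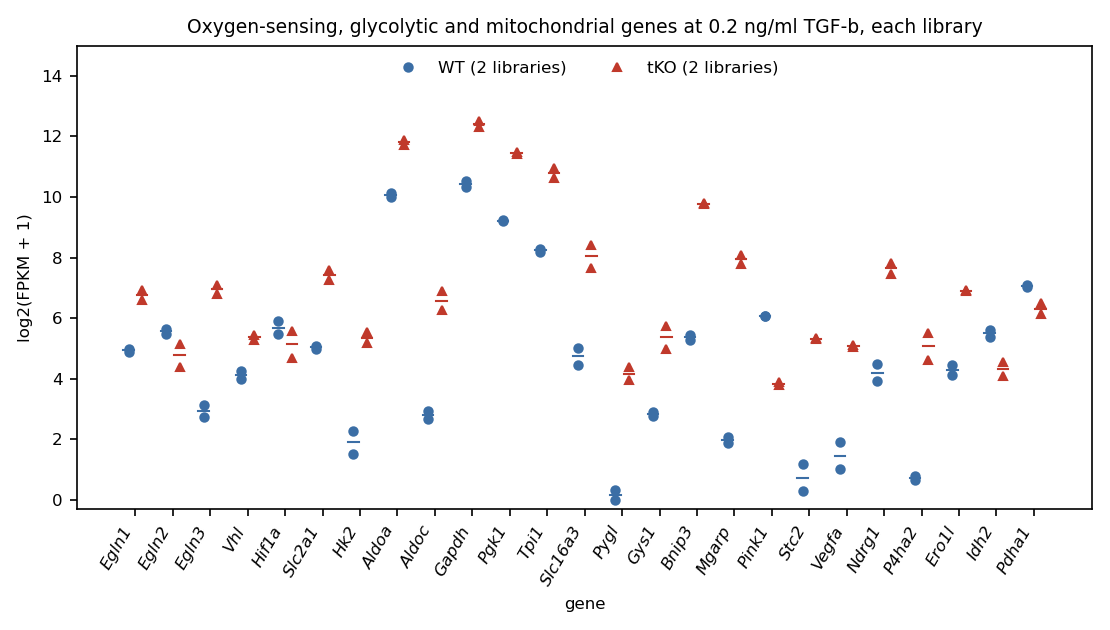
Each library's log2(FPKM + 1) at 0.2 ng/ml TGF-b is plotted for 25 genes of the oxygen-sensing, glycolysis, glycogen, mitochondrial and dioxygenase lists (blue circles WT, red triangles tKO, short bars the mean of 2). Glycolytic genes, Bnip3 and Mgarp show separated genotypes with tKO above, Pink1, Idh2 and Pdha1 show tKO below, and Hif1a overlaps; Slc2a1, Aldoa and Aldoc are drawn for their place in the pathway and were chosen with their values known.

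Mitochondrial genes split. Bnip3, a receptor that marks mitochondria for mitophagy, had the smallest p of all genes tested, with 42.9 and 37.9 FPKM in WT and 861 and 899 FPKM in tKO (4.41 ± 0.17, adjusted p = 7.29e-09). Its paralog Bnip3l went from 57.7 and 62.7 FPKM to 167 and 244 FPKM (1.73 ± 0.18). Mgarp, a mitochondrial protein induced by hypoxia, went from 2.71 and 3.19 FPKM to 220 and 270 FPKM (5.96 ± 0.23, adjusted p = 7.29e-09). In all, 8 of the 11 tested members of this list were higher, Higd1a (3.06) and Fam162a (2.67) among them. Pink1, the kinase that starts the other, ubiquitin-dependent route of mitophagy, was the 1 member lower in tKO. It stood at 66.1 and 65.8 FPKM in WT and at 13.7 and 12.8 FPKM in tKO (-2.23 ± 0.19, adjusted p = 6.10e-06). Fundc1 (0.04) and Map1lc3b (0.08) were not called.

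The tricarboxylic acid cycle did not share the rise. None of its 23 genes was higher and 2 were lower (median -0.22), a lower share near the 6.38% of all genes tested. Idh2, mitochondrial isocitrate dehydrogenase, a source of 2-oxoglutarate, went from 40.8 and 48.1 FPKM to 22.2 and 16.0 FPKM (-1.19 ± 0.19, adjusted p = 0.00102). Pdha1, the catalytic subunit of pyruvate dehydrogenase, went from 128 and 134 FPKM to 89.1 and 69.4 FPKM (-0.73 ± 0.18, adjusted p = 0.0153), a call that did not hold without the first WT library (adjusted p = 0.0737), the second (adjusted p = 0.110) or the second tKO library (adjusted p = 0.102). Without the first tKO library 6 genes of the list were lower and 1 was higher.

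Oxidative phosphorylation gave no call that held. Of 34 subunits tested, 3 were called higher (Cox6a1 0.69, Ndufa1 0.88 and Cox7a2 0.89) and none lower, a share near that of all genes. None was called without the second tKO library or without either WT library, 20 were called higher without the first, and after quantile normalization none was higher and 6 were lower. These messages are short. Genes whose longest annotated transcript is under 1 kb lay above the WT mean by a median of 0.78 in the second tKO library and 0.11 in the first, while genes of 3 to 5 kb lay at -0.20 and -0.04. Of the 682 genes under 1 kb, 125 were called higher and 14 lower, beside 9.11% higher and 6.38% lower over all genes tested. The part that transcript length plays in the calls of short genes was not tested beyond removing its trend, which left 2 subunits called higher and 1 lower.

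**Figure D3:**
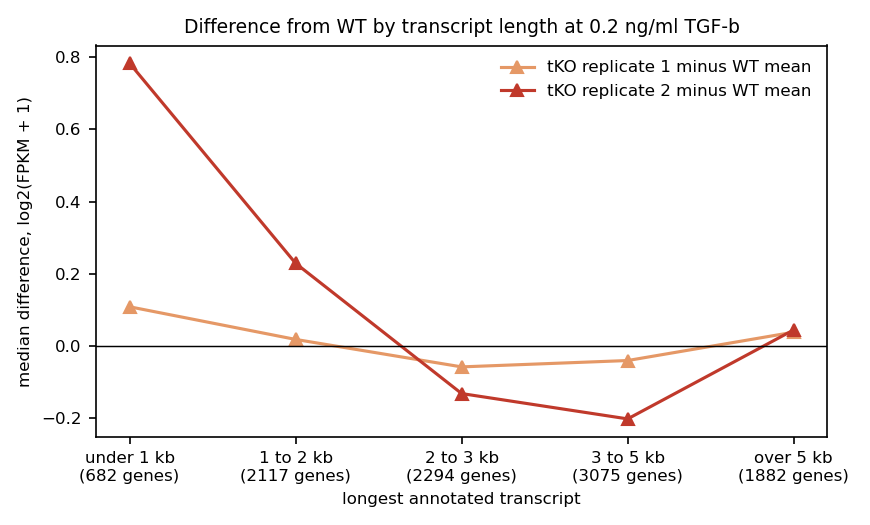
Median difference from the WT mean on the log2(FPKM + 1) scale (y axis) by class of longest annotated transcript (x axis), for the first tKO library (orange) and the second (red) at 0.2 ng/ml TGF-b. In the second library the shortest class stands at 0.78 and the 3 to 5 kb class at -0.20, while the first library stays between -0.06 and 0.11.

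Secreted and regulatory HIF targets were higher in 12 of 17 genes tested and lower in none (median 1.68). Vegfa, the angiogenic growth factor, went from 2.77 and 1.02 FPKM to 31.8 and 33.6 FPKM (3.61 ± 0.31, adjusted p = 5.99e-06). Adm, which encodes the vasodilator adrenomedullin, went from 1.85 and 1.77 FPKM to 43.9 and 36.9 FPKM (3.88 ± 0.28). Stc2, a secreted glycoprotein hormone, went from 0.223 and 1.27 FPKM to 39.2 and 38.8 FPKM (4.59 ± 0.29). All 3 sat near or under 2 FPKM in control cells apart from the first WT value of Vegfa. Ndrg1, a hypoxia- and stress-induced gene, stood at 14.3 and 21.3 FPKM in WT and 176 and 227 FPKM in tKO (3.45 ± 0.23), and Bhlhe40, a transcriptional repressor used by cytokine-producing T cells, at 41.3 and 40.1 FPKM against 342 and 165 FPKM (2.52 ± 0.30). Not called were Pgf (0.54), Angptl4 (0.36), Car12 (-0.89), Zfp36l1 (-0.30) and Rab20 (0.52).

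Other 2-oxoglutarate dioxygenases share the chemistry of the PHD enzymes, and several are HIF targets. Of 21 such genes and partners in the endoplasmic reticulum tested, 8 were higher and 1 was lower (median 0.64). P4ha2, a collagen prolyl hydroxylase subunit, went from 0.725 and 0.577 FPKM to 44.8 and 23.5 FPKM (4.35 ± 0.33, adjusted p = 1.93e-06). Ero1l, the oxidase that drives disulfide formation, went from 20.9 and 16.6 FPKM to 117 and 120 FPKM (2.61 ± 0.19). Among lysyl hydroxylases Plod2 was higher (2.15 ± 0.25) and Plod1 lower (-1.33 ± 0.37, adjusted p = 0.0284), though Plod1 passed in none of the fits that left out 1 of the 4 libraries. The histone demethylase Kdm3a (1.29 ± 0.23) and the lysyl hydroxylase Jmjd6 (1.54 ± 0.17) were also higher.

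Promoter sequences are shown for genes with very small p-values among HIF targets and metallothioneins. Each window covers 250 bases before to 50 after a RefSeq gene start in GRCm38.p6, 5′ to 3′ on the gene's strand. Capitals mark the hypoxia-response core (ACGTG or GCGTG, either strand, overlaps merged) in the first 3, and the metal-response core (TGCNCNC, either strand) in Mt1.
Bnip3: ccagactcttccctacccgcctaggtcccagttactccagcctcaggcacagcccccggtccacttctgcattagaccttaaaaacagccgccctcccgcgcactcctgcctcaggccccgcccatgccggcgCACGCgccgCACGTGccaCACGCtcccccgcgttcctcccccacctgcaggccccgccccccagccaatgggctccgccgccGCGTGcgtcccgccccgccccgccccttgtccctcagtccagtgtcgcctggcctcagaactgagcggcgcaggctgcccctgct
Mgarp: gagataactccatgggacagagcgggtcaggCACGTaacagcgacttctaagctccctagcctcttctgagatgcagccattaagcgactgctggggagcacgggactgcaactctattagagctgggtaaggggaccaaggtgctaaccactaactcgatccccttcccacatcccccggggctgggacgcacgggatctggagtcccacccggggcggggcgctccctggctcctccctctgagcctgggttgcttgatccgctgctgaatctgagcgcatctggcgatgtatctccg
Egln3: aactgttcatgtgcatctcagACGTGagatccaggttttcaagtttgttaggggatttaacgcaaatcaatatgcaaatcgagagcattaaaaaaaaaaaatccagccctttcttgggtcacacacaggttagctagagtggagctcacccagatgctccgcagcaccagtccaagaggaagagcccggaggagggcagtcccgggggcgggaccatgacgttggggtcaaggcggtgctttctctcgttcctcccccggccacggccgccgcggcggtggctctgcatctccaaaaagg
Mt1: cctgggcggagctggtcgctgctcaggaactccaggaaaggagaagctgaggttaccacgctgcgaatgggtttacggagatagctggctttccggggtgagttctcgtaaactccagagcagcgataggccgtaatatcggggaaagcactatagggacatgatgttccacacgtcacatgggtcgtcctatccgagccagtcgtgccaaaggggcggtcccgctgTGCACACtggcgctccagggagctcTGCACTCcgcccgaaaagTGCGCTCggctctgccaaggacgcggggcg
The windows lie at chr7:138909457-138909756 (Bnip3, minus strand), chr3:51396498-51396797 (Mgarp, minus strand), chr12:54203825-54204124 (Egln3, minus strand) and chr8:94178839-94179138 (Mt1, plus strand). The Bnip3 window held 5 matches to the hypoxia core, with an overlapping pair on opposite strands counted separately. Those of Mgarp and Egln3 held 1 each, and that of Tpi1 held none. The core is short and common, present in 43.8% of all 32851 windows. By symbol, 69.9% of the 7588 tested genes with a window held it, as did 67.7% of those called higher and 68.8% of those called lower. Among genes of the HIF, glycolysis and dioxygenase lists it was in 40 of 46 (87.0%) called higher and 23 of 30 (76.7%) not called or lower. A match in letters is a description and shows no binding.

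Regulatory T cell genes moved in both directions. Foxp3 went from 108 and 144 FPKM in WT to 40.2 and 30.9 FPKM in tKO, a difference of -1.79 ± 0.28 (adjusted p = 0.000807). In bulk RNA, fewer Foxp3-positive cells and less Foxp3 message per cell cannot be told apart. Lrrc32, the receptor that presents latent TGF-b on regulatory T cells, went from 20.1 and 27.2 FPKM to 6.83 and 5.76 FPKM (-1.75 ± 0.32, adjusted p = 0.00239). Of 18 list genes tested, 5 were lower and 7 were higher (median 0.31). Entpd1 (CD39) and Nt5e (CD73), ectoenzymes that turn extracellular ATP into adenosine, were among the lower genes (-1.38 and -1.18). The second tKO library carried most of the Nt5e difference, with 191 and 189 FPKM in WT and 141 and 48.9 FPKM in tKO, and without that library Nt5e was not called (adjusted p = 0.210), nor without the first or the second WT library (adjusted p = 0.137 and 0.149). Entpd1 was not called without the first tKO library (adjusted p = 0.111) or the first or second WT library (adjusted p = 0.0700 and 0.198). Gpr83 (-0.87) completed the lower set and passed in none of the fits that left out 1 of the 4 libraries. The higher set held costimulatory receptors and genes of activated cells. Tnfrsf9 (4-1BB) went from 121 and 110 FPKM to 547 and 486 FPKM (2.15 ± 0.21), Ccr8 from 146 and 200 FPKM to 464 and 379 FPKM (1.29 ± 0.19) and Ebi3, a subunit of IL-35 and IL-27, from 32.0 and 43.4 FPKM to 119 and 188 FPKM (1.98 ± 0.32). Ctla4 did not differ beyond its spread (0.25, adjusted p = 0.420). The list gave 3 higher and 2 lower without the first WT library, 5 and 2 without the second, 6 and 3 without the first tKO library, 4 and 3 without the second, and 3 and 4 after quantile normalization.

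TGF-b pathway genes were likewise divided, with 6 higher and 5 lower of 21 tested (median 0.02). Sox4, a TGF-b-induced transcription factor, went from 13.3 and 10.3 FPKM to 1.09 and 0.456 FPKM (-2.87 ± 0.30, adjusted p = 2.82e-05). Id1, an inhibitor of basic helix-loop-helix factors, went from 2.33 and 3.41 FPKM to 15.0 and 20.5 FPKM (2.28 ± 0.28, adjusted p = 0.000128). Pmepa1, a TGF-b-induced feedback inhibitor, was higher (26.4 and 24.3 FPKM against 53.8 and 78.7 FPKM, 1.33 ± 0.24), whereas Ldlrad4, another such inhibitor, was lower (26.1 and 35.4 FPKM against 17.6 and 14.0 FPKM, -0.91 ± 0.24, not called without the second WT or the second tKO library). Targets of TGF-b thus lay on both sides of WT. Id2 (1.26) was called higher and Id3 (-0.82) lower, neither without the first WT library (adjusted p = 0.0554 and 0.101), and the list then gave 2 higher and 2 lower. It gave 5 and 3 without the second WT library and 4 and 2 without the second tKO library.

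Among helper fates, the higher counts of the Th1 list and of the Il9, Il3 and GM-CSF list held when a library was left out. Those of the Th2 and Th17 lists depended on single libraries. Of 16 Th1 genes tested 8 were higher and 2 lower, and over the fits without 1 library 8 or 9 were higher. Tbx21, the transcription factor T-bet that directs Th1 cells, went from 0.497 and 0.0151 FPKM to 38.0 and 33.4 FPKM (4.89 ± 0.45, adjusted p = 1.02e-05). Its partner Runx3 was also higher (1.61 ± 0.28), as were both IL-12 receptor chains, Il12rb2 at 2.66 and 2.82 FPKM against 45.8 and 44.9 FPKM (3.63 ± 0.43) and Il12rb1 (2.12 ± 0.32). Ifng, listed at 0 in both WT libraries, stood at 11.7 and 28.1 FPKM in tKO. The 2 receptor genes called lower went the other way, Ifngr1 for interferon gamma from 188 and 168 FPKM to 51.1 and 36.7 FPKM (-2.02 ± 0.21) and Il27ra for IL-27 (-1.26 ± 0.21).

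Il9 showed the largest fold change of the named genes, from 1.70 and 0.368 FPKM to 304 and 820 FPKM (8.03 ± 0.56, adjusted p = 1.11e-06). IL-9 is a cytokine that TGF-b together with IL-4 is known to induce. The 2 tKO libraries differed widely for Il9 but both lay more than 100 FPKM above WT. Csf2, which encodes GM-CSF, went from 2.71 and 0.384 FPKM to 61.6 and 96.7 FPKM (5.11 ± 0.41), and Il3 from 0.505 FPKM and a listed 0 to 12.3 and 19.1 FPKM (3.73 ± 0.62). Lif (3.44), Tnfsf11 (1.73) and Irf4 (1.72), the last a transcription factor needed for IL-9 production, were higher too, so 6 of 8 genes of this group were called, without exception in the fits that left out 1 library. Csf1 and Osm were not called.

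Th2 genes were higher in 6 of 11 tested, at low levels. Il4 was listed at 0 in WT and at 2.53 and 1.91 FPKM in tKO, and Il5 was listed at 0 in WT and at 4.29 and 16.5 FPKM in tKO. Gata3, the factor that directs Th2 cells, stood at 27.4 and 31.9 FPKM in WT and 40.1 and 46.3 FPKM in tKO and was not called (0.53 ± 0.18, adjusted p = 0.0693). The call of Il4 did not hold without either WT library (adjusted p = 0.0558 and 0.0584). The list gave 2 higher genes without the first WT library, 4 without the second and 4 without the second tKO library. Th17 genes gave 3 higher and 2 lower of 9 tested, with 1 higher without either WT library or without the second tKO library. Il17f was at 45.7 and 68.9 FPKM in WT and 180 and 291 FPKM in tKO (2.01 ± 0.63, adjusted p = 0.0467), and was not called without the second tKO library (adjusted p = 0.242) or the first or second WT library (adjusted p = 0.238 and 0.129). Il6ra (-1.64 ± 0.24) and Il6st (-2.08 ± 0.33), which form the IL-6 receptor, were lower. The follicular helper list gave 1 higher and 2 lower of 8 tested (median 0.09), and its higher share was near the 9.11% of all genes tested. Cxcr5, the receptor that guides cells to B cell follicles, went from 7.78 and 5.32 FPKM to 0.926 and 1.40 FPKM (-1.79 ± 0.34), and Pou2af1 was also lower (-2.11 ± 0.37). Cytotoxic genes were higher in 3 of 10 tested (Serpinb9 2.05, Fasl 2.71 and Gzmb 1.94), Gzmb not without the second tKO library (adjusted p = 0.148) or the first or second WT library (adjusted p = 0.115 and 0.176). Of 10 checkpoint genes tested, the ligands Cd274 (PD-L1, 1.70) and Pdcd1lg2 (PD-L2, 1.52) were higher. The gene for VISTA, 4632428N05Rik, was lower (-1.30), a call lost without the first WT library (difference -1.02).

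The naive and recirculating program was lower. Of 17 genes tested 9 were lower and 1 was higher (median -1.14), a count of 9 or 10 in every fit without 1 library; several members entered this list after earlier results of these data were known, so it is no independent support. Klf2, the transcription factor that maintains quiescence and recirculation, went from 225 and 243 FPKM to 28.1 and 15.3 FPKM (-3.43 ± 0.24, adjusted p = 9.98e-07). A gene that Klf2 is known to control followed the same pattern. S1pr1, the receptor for exit from lymphoid organs, went from 73.3 and 81.5 FPKM to 10.3 and 7.73 FPKM (-2.98 ± 0.20, adjusted p = 7.57e-07). Tcf7, encoding TCF-1, a factor of naive and memory T cells, went from 179 and 140 FPKM to 35.6 and 31.6 FPKM (-2.20 ± 0.18). Arl5c (-3.74) and Igfbp4 (-1.91) were lower as well, and Dapl1 was the 1 member that was higher (1.19). Outside the list, Pik3ip1, an inhibitor of PI3 kinase found in resting T cells, went from 54.5 and 42.5 FPKM to 3.59 and 6.38 FPKM (-3.08 ± 0.26), and Lpar6 (-2.89) and Tesc (-2.79) were among the 10 lower genes with the smallest p.

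Of 14 T cell receptor and coreceptor genes tested, 5 were lower and 2 higher (median -0.37). The lower count rested on single libraries, with 1 without the first WT library, 0 without the second, 7 without the first tKO library and 2 without the second, and it was 8 after quantile normalization. Cd4 itself went from 153 and 170 FPKM to 90.8 and 96.1 FPKM (-0.78 ± 0.17, adjusted p = 0.00708), and without the second WT library its call was lost (adjusted p = 0.0802). Among adhesion genes, 5 of 17 were higher and 3 lower, and 3 were higher and 2 lower without the second WT library. Cd44, a marker of antigen-experienced cells, went from 32.2 and 33.5 FPKM to 102 and 155 FPKM (1.91 ± 0.23). Icam1 (2.04) and Vcam1 (2.33) were higher, and Itgb7, the beta chain of gut-homing integrins, was lower, with 240 and 255 FPKM in WT and 91.8 and 33.0 FPKM in tKO (-2.14 ± 0.36). Chemokine genes were higher in 9 of 16 tested and lower in 2. The ligands Ccl1, Ccl3, Ccl4, Ccl5 and Ccl22 were among the higher ones. Ccl1 went from 12.6 and 14.8 FPKM to 394 and 601 FPKM (5.06 ± 0.41, adjusted p = 3.46e-06) and Ccl22 from 6.51 and 6.41 FPKM to 44.1 and 67.4 FPKM (2.90 ± 0.39). TNF family genes were higher in 9 of 18 tested and lower in 2. Cd70 led the higher ones (0.593 and 1.24 FPKM against 23.4 and 37.6 FPKM, 4.02 ± 0.34). Its receptor Cd27 was lower (104 and 103 FPKM against 36.2 and 39.4 FPKM, -1.43 ± 0.24). Ligand and receptor of this pair moved in opposite directions.

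**Figure D4:**
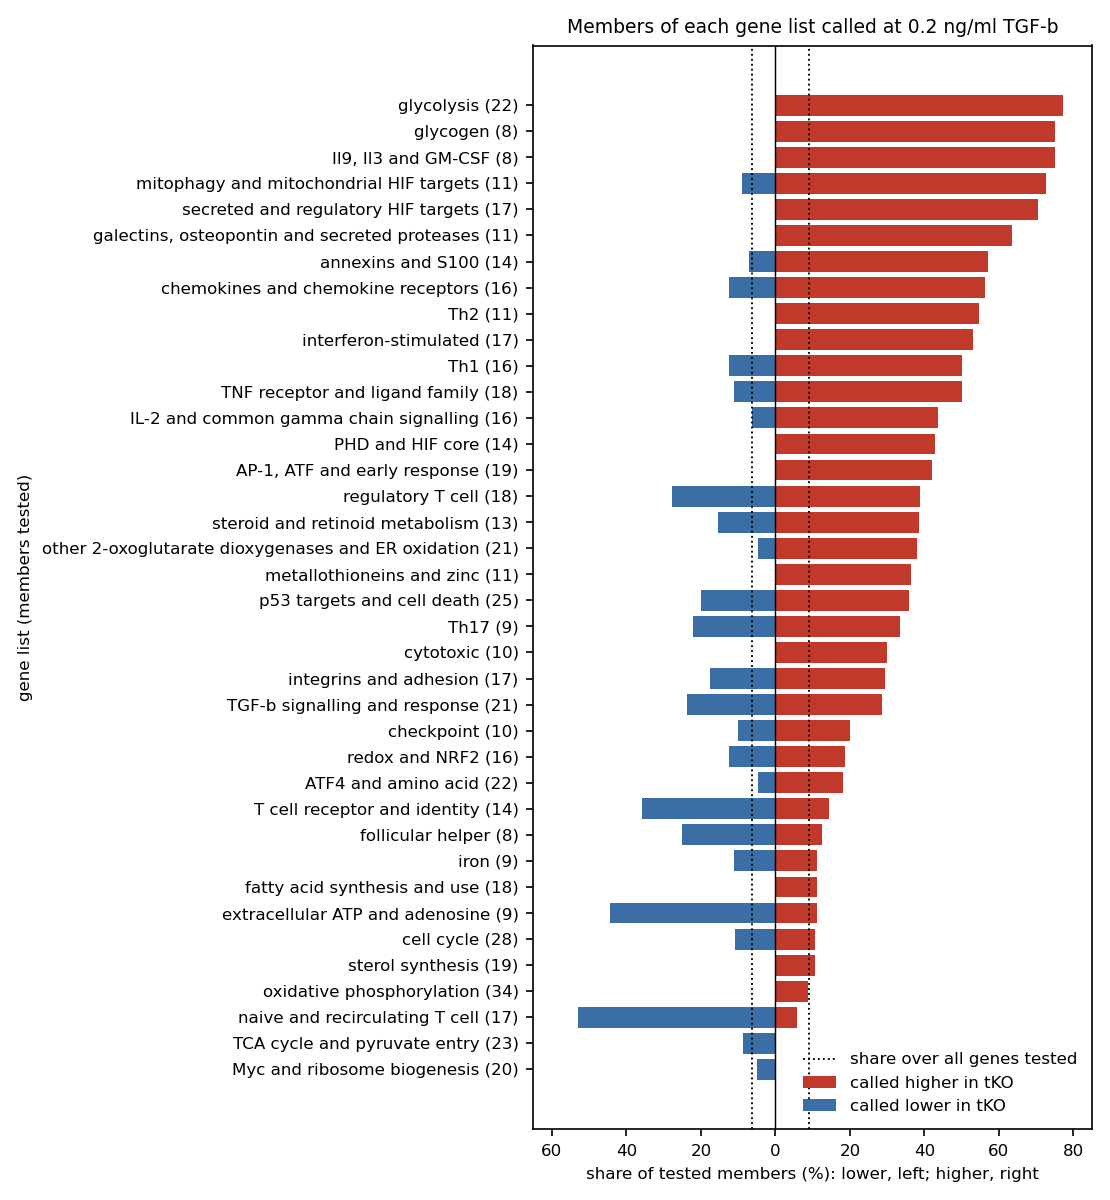
For each of the 38 gene lists, bars give the share of tested members called higher (red, right) or lower (blue, left) in tKO at 0.2 ng/ml TGF-b, with the number tested in parentheses and dotted lines at the shares over all genes tested, 9.11% and 6.38%. Glycolysis (17 of 22) stands at the top and the naive and recirculating list (9 of 17 lower) reaches farthest left.

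Metallothioneins, small zinc- and copper-binding proteins induced by metals and stress, showed some of the highest fold changes. Mt1 went from 43.5 and 32.2 FPKM to 1235 and 2330 FPKM (5.46 ± 0.27, adjusted p = 7.38e-08) and Mt2 from 3.45 and 1.31 FPKM to 102 and 302 FPKM (5.78 ± 0.48, adjusted p = 4.34e-06). Both are very short messages and were highest in the second tKO library. Of the other 9 zinc genes tested, the importers Slc39a4 (0.80) and Slc39a1 (1.36) were called, neither without the second tKO library (adjusted p = 0.115 and 0.332) or the second WT library (adjusted p = 0.209 and 0.136), and Slc39a1 not without the first WT library (adjusted p = 0.186). The metal-response core shown above in the Mt1 window occurred in 51.0% of all windows.

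Calcium-binding and carbohydrate-binding proteins were also raised. Of 14 annexin and S100 genes tested 8 were higher and 1, Anxa11, was lower. Without the first WT library 5 were higher, and Anxa11 passed in none of the fits that left out 1 of the 4 libraries. Anxa2, a membrane-binding annexin, went from 144 and 148 FPKM to 1624 and 1490 FPKM (3.40 ± 0.17, adjusted p = 7.38e-08), and S100a10, its binding partner, was called at 0.94 ± 0.22 but not without the second tKO library or the first WT library. Galectins, osteopontin and proteases were higher in 7 of 11 tested, with Lgals3 at 77.0 and 70.9 FPKM against 228 and 232 FPKM (1.62 ± 0.17) and Timp1, a metalloprotease inhibitor, at 0.617 and 0.603 FPKM against 14.7 and 25.3 FPKM (3.66 ± 0.54). Stress and early response factors were higher in 8 of 19 and lower in none, and 5 were higher without the second WT library. Atf3, a stress-induced repressor, went from 2.52 FPKM and a listed 0 to 116 and 124 FPKM (6.01 ± 0.50), and Ier3 from 2.25 and 3.13 FPKM to 74.8 and 104 FPKM (4.61 ± 0.30). Batf3 was listed at 0 in both WT libraries and stood at 7.95 and 20.1 FPKM in tKO.

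Interferon-stimulated genes were higher in 9 of 17 tested and lower in none (median 1.30), and 7 to 9 were higher in each fit without 1 library. Bst2, encoding the antiviral tether tetherin, went from 46.5 and 56.3 FPKM to 182 and 298 FPKM (2.16 ± 0.23), and Isg15, a ubiquitin-like modifier, from 3.78 and 6.73 FPKM to 39.8 and 84.9 FPKM (3.28 ± 0.36). Irgm1 (1.79) and Igtp (1.41), GTPases induced by interferon gamma, were also higher. Markers of cells other than CD4+ T cells moved beside these genes in part. Dendritic and MHC class II markers summed to 1125 and 609 FPKM in WT and 1331 and 1437 FPKM in tKO. Of 5 tested, 1 was called higher and 0 lower. H2-Ab1 was at 170 and 58.6 FPKM in WT and 458 and 519 FPKM in tKO (2.28 ± 0.60, adjusted p = 0.0204, but 0.230 without the second WT and 0.103 without the second tKO library), while H2-Aa stood at 107 and 37.7 FPKM against 29.4 and 45.1 FPKM and Itgax was listed at 0 in all 4 libraries. NK cell markers summed to 0.715 and 0.0533 FPKM in WT and 4.62 and 8.39 FPKM in tKO, in tKO nearly all of it Klrk1, with Ncr1 listed at 0 throughout. CD8 T cell markers summed to 10.6 and 6.98 FPKM against 16.1 and 15.6 FPKM. Erythroid markers summed to 19.4 and 4.23 FPKM in WT and 69.6 and 14.4 FPKM in tKO, so the genotypes overlapped and the first library of each was the higher one. The part of other cell types in these differences was not tested.

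p53 targets and cell death genes gave 9 higher and 5 lower of 25 tested. Cdkn1a, encoding the cell cycle inhibitor p21, went from 36.9 and 36.7 FPKM to 337 and 482 FPKM (3.42 ± 0.23, adjusted p = 7.63e-07). Sesn1 went the opposite way, from 87.9 and 73.1 FPKM to 11.3 and 11.8 FPKM (-2.70 ± 0.23), and its relative Sesn2 was higher (1.49 ± 0.31), though not without the second WT library (adjusted p = 0.0805). The p53 list gave 3 higher and 2 lower without the second WT library, 6 and 2 without the first, 10 and 3 without the first tKO library and 6 and 3 without the second. Bcl2l1, which encodes the survival protein BCL-XL, went from 57.8 and 56.5 FPKM to 149 and 131 FPKM (1.27 ± 0.16). Genes of steroid and retinoid metabolism gave 5 higher and 2 lower of 13 tested, with 3 higher without either WT library and 2 without the second tKO library. Akr1c18, which inactivates progesterone, went from 85.3 and 94.7 FPKM to 657 and 432 FPKM (2.55 ± 0.24). Adh1, an alcohol dehydrogenase that also oxidises retinol, fell from 31.5 and 39.7 FPKM to 1.68 and 0.343 FPKM (-4.26 ± 0.44, adjusted p = 2.72e-05), and Hsd11b1, which activates glucocorticoids, from 20.7 and 18.3 FPKM to 2.10 and 3.94 FPKM (-2.39 ± 0.34). Cyp1a1, a target of the aryl hydrocarbon receptor, was lower as well (21.5 and 19.5 FPKM against 1.53 and 1.14 FPKM, -3.21 ± 0.31).

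IL-2 and common gamma chain genes gave 7 higher and 1 lower of 16 tested, but 3 higher without the first WT library and 4 without the second tKO library. Redox genes gave 3 higher and 2 lower of 16, but 8 higher without the first tKO library and 1 higher without any other 1 of the 4 libraries. ATF4 and amino acid genes gave 4 higher and 1 lower of 22, but 1 higher without either WT library and 2 higher without the second tKO library. Extracellular ATP and adenosine genes gave 1 higher and 4 lower of 9, with 0 lower without either WT library and 1 without the second tKO library. The cell cycle list gave 3 higher and 3 lower of 28 tested (median -0.29), near the shares over all genes tested (9.11% higher and 6.38% lower). It gave 5 and 10 without the first tKO library, 2 and 1 without the second, 1 and 1 without the first WT library, 2 and 0 without the second, and 1 and 7 after quantile normalization. The smallest p among its higher genes belonged to Ccnd2, which was at 140 and 139 FPKM against 313 and 438 FPKM (1.40 ± 0.19). The Myc, sterol, fatty acid and iron lists that follow likewise gave shares near or under those of all genes. Of Myc and ribosome biogenesis genes, 1 of 20 was called, Mxd4 (-0.97), and not without the second WT library (adjusted p = 0.0924). Sterol synthesis had 2 of 19 called higher (Hsd17b7 1.17 and Fdps 0.54), neither without the second WT library (adjusted p = 0.115 and 0.0526) or the second tKO library (adjusted p = 0.0997 and 0.167), and Fdps not without the first WT library (adjusted p = 0.267). Fatty acid genes had 2 of 18 called higher, and 1 without the first tKO library or either WT library. Hilpda, a lipid droplet protein and HIF target, went from 22.9 and 23.4 FPKM to 238 and 299 FPKM (3.47 ± 0.26). Iron genes gave Hmox1, heme oxygenase, higher (2.41 and 1.80 FPKM against 9.94 and 8.74 FPKM, 1.74 ± 0.32) and Slc11a2 lower (-0.87) of 9 tested, the latter not without the second WT or second tKO library (adjusted p = 0.256 and 0.145).

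The genotype difference at 0.2 ng/ml was then set beside those at the other doses, which use none of the same libraries. Without TGF-b 998 genes were called (9.64%, with 5.34% higher and 4.3% lower) and at 2 ng/ml 1655 (16.0%, with 7.82% higher and 8.16% lower). Of the 943 genes higher at 0.2 ng/ml, 420 (44.5%, and 75.9% of the 553 higher at 0) were also higher without TGF-b and 491 (52.1%, and 60.6% of the 810 higher at 2) at 2 ng/ml. Of the 661 lower genes, 256 (38.7%, and 57.5% of 445) were lower without TGF-b and 238 (36.0%, and 28.2% of 845) at 2 ng/ml. Glycolysis members were higher in 15 genes at 0 and 20 at 2 ng/ml, with medians of 1.08 and 2.05 against 1.65 at 0.2 ng/ml.

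The difference itself changed with dose in 45 genes between 0 and 0.2 ng/ml (0.435%) and 214 genes between 0.2 and 2 ng/ml (2.07%). Igfbp7, a secreted IGF-binding protein, had the smallest p of the first contrast and was called in all 24 alternative fits. In tKO it lay at 52.0 and 67.3 FPKM without TGF-b, below 199 and 217 FPKM in WT. With 0.2 ng/ml the order turned, to 204 and 220 FPKM in tKO against 101 and 120 FPKM in WT (change of the difference 2.73 ± 0.24, adjusted p = 0.000437). Il4, Il24 and Gata3 had a smaller genotype difference at 0.2 ng/ml than without TGF-b. Il4 in tKO stood at 37.9 and 56.4 FPKM without TGF-b and 2.53 and 1.91 FPKM with 0.2 ng/ml (change -3.67 ± 0.54, adjusted p = 0.0236). For Il24 the tKO values were 104 and 130 FPKM, then 1.71 and 6.22 FPKM (change -4.63 ± 0.57, adjusted p = 0.00977), and for Gata3 126 and 112 FPKM, then 40.1 and 46.3 FPKM (change -1.63 ± 0.26, adjusted p = 0.0242). WT levels of Il4 and Il24 stayed under 1 FPKM at all doses. When 1 of the 12 libraries was left out, the change was still called in 10 of 12 fits for Il24, 4 for Il4 and 4 for Gata3. Ndrg1 went the other way, its difference growing by 2.22 ± 0.32 (adjusted p = 0.0236) from WT values of 44.4 and 45.2 FPKM and tKO values of 89.2 and 126 FPKM without TGF-b (called in 6 of the 12 fits).

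Foxp3 in tKO was at 1.99 and 3.77 FPKM without TGF-b against 51.4 and 50.5 FPKM in WT (-3.78 ± 0.28), and at 2 ng/ml at 86.7 and 142 FPKM against 120 and 168 FPKM (-0.36 ± 0.28, adjusted p = 0.434), where the genotypes overlapped. The change of its difference missed the threshold on both sides (0 to 0.2 ng/ml 1.99 ± 0.40, adjusted p = 0.0511, and 0.2 against 2 ng/ml -1.43 ± 0.40, adjusted p = 0.0750). Klf2 in tKO was at 5.61 and 4.63 FPKM, then 28.1 and 15.3 FPKM, then 58.5 and 74.5 FPKM across the doses, and its difference was larger at 0.2 than at 2 ng/ml by -1.55 ± 0.33 (adjusted p = 0.0391). The difference in S1pr1 was larger in size at 0.2 ng/ml than at either other dose (by -1.64 ± 0.28 against 0 and -1.32 ± 0.28 against 2 ng/ml). These calls for Klf2 and S1pr1 held in 3 of the 12 fits that left out 1 library.

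Isg15 stood out in the comparison with 2 ng/ml by its low level in tKO at that dose. It was at 1.84 and 2.22 FPKM in tKO at 2 ng/ml against 39.8 and 84.9 FPKM at 0.2 ng/ml, while WT stayed between 2.40 and 10.3 FPKM at all doses (change of the difference 3.76 ± 0.50, adjusted p = 0.0153, called in 8 of the 12 fits). Of the 178 genes with a higher difference at 0.2 ng/ml, 102 had a longest transcript under 1 kb, a class of 682 among 10050 genes with a length. That class had a median genotype difference of 0.45 at 0.2 ng/ml and -0.50 at 2 ng/ml. Both counts rest on single libraries, also on some outside the contrast, because all 12 libraries share 1 estimate of spread. The 214 fell steeply without either WT library at 0 ng/ml, and the 45 without either tKO library at 2 ng/ml. Without the second tKO library at 0.2 ng/ml the 214 became 6 and without the first 1691, and each WT library at 0.2 or 2 ng/ml left 1 to 4. The 45 became 1 without either WT library at 0 ng/ml and 110 without the first tKO library at 0.2 ng/ml.

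**Figure D5:**
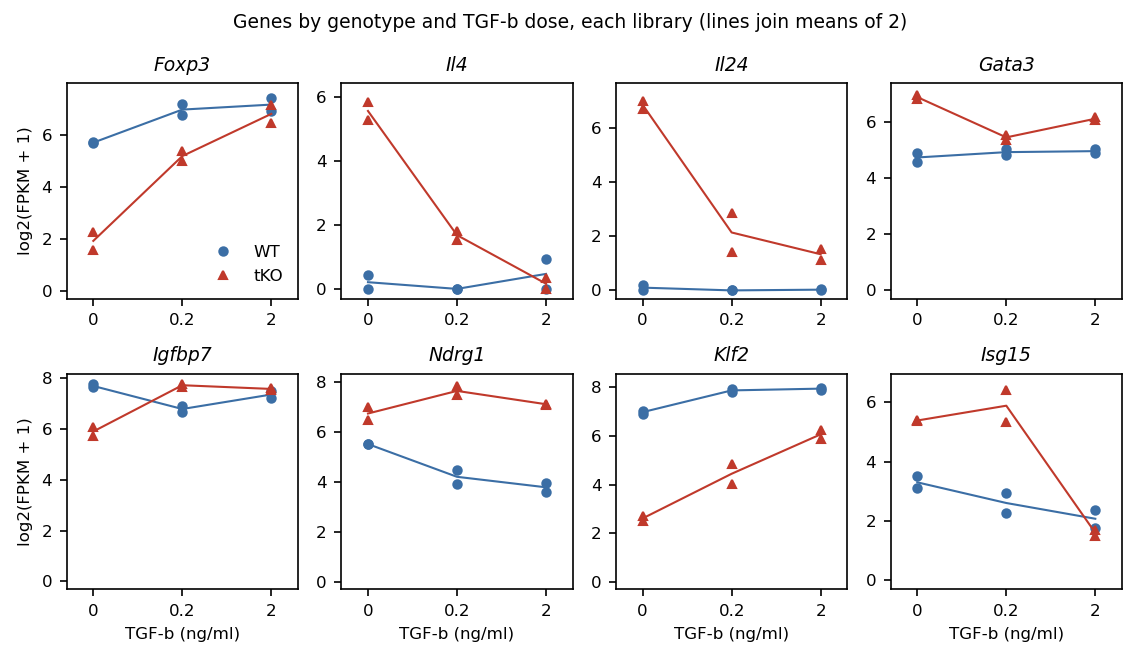
Each library's log2(FPKM + 1) is plotted against TGF-b dose (0, 0.2 and 2 ng/ml, drawn at even spacing) for 8 genes, with WT in blue circles and tKO in red triangles and lines joining the means of 2. Foxp3 and Klf2 in tKO climb toward WT with dose, Il4 and Il24 in tKO drop at 0.2 ng/ml, Igfbp7 changes order between 0 and 0.2 ng/ml, and Isg15 in tKO is low only at 2 ng/ml among these doses.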

How the data were processed

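RNA of 12 libraries (6 groups of 2) was measured with a SMARTer low-input kit, which does not mark strand, so sense and antisense reads are not separated. The authors deposited FPKM per gene entry; per the submitters' processing notes Trimmomatic, TopHat, Cufflinks and Cuffdiff were used with build mm9 (versions and read counts not given in the sources used here). From 34309 entries, 8483 without a symbol and 17 exact duplicates were dropped and rows of 1 symbol were summed, giving 22783 symbols. Of these, 345 name several genes (written with a comma) and their share between genes is uncertain. A listed 0 can be a failed estimate.

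Genes averaging 1 FPKM or more across all 12 libraries were tested with limma 3.58.1 (R 4.3.3) on log2(FPKM + 1), 1 coefficient per group, empirical Bayes with trend, Benjamini-Hochberg over all genes, two-sided, threshold 0.05. The code was tested on simulated data. All 12 libraries share 1 estimate of spread. Named are the 10 genes of smallest p and, with a mean of 10 FPKM or more in the higher group, of largest change in each direction; up to 6 called members per list by p, and the members that a count of 5 or fewer refers to; the targeted genes, Vhl, Hif1a and Foxp3; up to 8 genes of smallest p per dose contrast; and genes listed at 0 in WT with 10 FPKM or more in both tKO libraries. Other genes given with values fall outside this rule and were chosen for their place in a pathway with their values known. Some genes that meet the rule are not reported here. Members, lists (38 pathway and 9 marker lists) and tests were chosen with earlier results of these data known. Alternatives covered pseudocount, filter, scaling, empirical Bayes options, replicate block, and leaving out each library; 1, removing a transcript-length trend (GENCODE transcripts, matched for 97.1% of genes), was chosen after seeing the data. Promoter windows were taken from RefSeq (GRCm38.p6).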

Additional observations from a re-analysis of the deposited data

Results flagged for a closer look

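Genes named by rule are given here when the tKO minus WT difference at 0.2 ng/ml TGF-b departed from that at another dose, tested as a contrast of the 2 differences in limma (adjusted p under 0.05, log2(FPKM + 1) scale). A negative value means a more negative difference at 0.2 ng/ml.

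Against 0 ng/ml, the difference at 0.2 ng/ml was more negative for Il24 (-4.63), Rnd3 (-4.06), Il4 (-3.67), Edn1 (-3.32), Gm14085 (-2.91), S1pr1 (-1.64), Gata3 (-1.63) and Nfil3 (-1.59). It was more positive for Tpi1 (1.17), Bnip3 (1.37), Cd2 (1.38), Tnfsf11 (1.41), Id3 (1.58), Mgarp (1.67), Ndrg1 (2.22), Fut7 (2.37), Serpina3f,Serpina3g (2.38), Igfbp7 (2.73), Cd70 (2.96) and AA467197 (3.60). Igfbp7 was called in all 12 fits that left out 1 library, Il24 in 10, Rnd3 in 7, and Fut7 and Ndrg1 in 6. Cd2, Mgarp, Nfil3, Tnfsf11 and Tpi1 were called in 1 of these 12 fits, and the remaining genes in 3 or 4. Over all 24 alternative fits Mgarp was called in 5 and Tpi1 in 7.

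Against 2 ng/ml, the difference was more negative for Ccdc164 (-2.33), Itgb7 (-2.14), Mgarp (-1.58), Klf2 (-1.55) and S1pr1 (-1.32). It was more positive for Cox6a1 (1.19), Lgals1 (1.43), Egln3 (1.49), S100a13 (1.59), Atp6v0b (1.67), Bst2 (1.76), Atp5e (1.99), 2410006H16Rik (2.07), 1500012F01Rik (2.14), Smim4 (2.26), Mt1 (2.29), Ifi27l2a,Ifi27l2b (2.36), Tgm2 (2.47), Batf3 (2.64) and Isg15 (3.76). Of the 12 fits that left out 1 library, Isg15 was called in 8, Atp5e and Smim4 in 6, Ifi27l2a,Ifi27l2b in 5, 1500012F01Rik in 4 and the others in 3. With the transcript-length trend removed, 2410006H16Rik, Atp5e, Batf3, Bst2, Cox6a1, Itgb7, Lgals1, S100a13 and S1pr1 were no longer called. The smallest value over the alternatives was 0.03 for Cox6a1 (adjusted p = 0.939), 0.51 for Lgals1, 0.59 for S100a13, 0.72 for Atp5e and, in size, -0.29 for Mgarp.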

How the results depend on the processing

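None of the 208 named genes called at 0.2 ng/ml changed direction under any of the 25 alternative settings, and no gene called at 0.2 ng/ml was called in the opposite direction in any of them. All called genes had separated genotypes, so most of these settings could not reverse a direction. Only quantile normalization, median-ratio scaling and removal of the transcript-length trend could have done so. Fut7, which was not called at 0.2 ng/ml, took either sign (-0.27 without the first WT library, 0.30 without the second). The 1604 calls at 0.2 ng/ml became 631 (439 higher, 192 lower) when the 4 libraries were fitted alone, and leaving out 1 of the 12 libraries gave 749 to 2667 calls (519 to 1507 higher, 230 to 1160 lower). The other settings gave 1265 to 1902 calls. Fitting the 4 libraries alone moved the share of higher calls from 58.8% to 69.6%; quantile normalization moved it to 50.4%. Of 208 named genes called, 149 were still called with the 4 libraries alone, 157 without either WT library and 165 without the second tKO library.

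The 45 genes whose difference changed between 0 and 0.2 ng/ml became 17 with a pseudocount of 0.1, 16 without a filter, 5 without the variance trend, and 1 to 110 when 1 library was left out. The 214 between 0.2 and 2 ng/ml became 11 without a filter, 1 without the variance trend, 87 with the transcript-length trend removed, and 1 to 1691 when 1 library was left out.

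Libraries share replicate numbers across groups, but the labels do not say that a number marks a shared animal or batch, and deviations of same-numbered WT and tKO libraries at 0.2 ng/ml correlated at 0.0610. Over the other pairs of groups the correlation ran from -0.106 (WT at 2 with tKO at 0.2 ng/ml) to 0.416 (tKO at 0 with tKO at 0.2 ng/ml), with 0.255 for WT with tKO at 0 ng/ml and 0.110 for tKO at 0.2 with tKO at 2 ng/ml. The first tKO library carried Y-linked transcripts at each dose, so whether same-numbered tKO libraries share an animal across doses is not settled. That question touches the counts of the dose contrasts. At 0.2 ng/ml, sex chromosome markers summed to 67.6 and 4.26 FPKM in the tKO libraries and 2.68 and 2.55 FPKM in the WT libraries. The part of this difference in the tKO minus WT calls was not tested. A fit with a replicate block gave 1902 calls (1110 higher, 792 lower), 80 between 0 and 0.2 ng/ml and 536 between 0.2 and 2 ng/ml. Read depth is unknown, and with 2 libraries per group a missed call does not show that a gene was unchanged.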
